A study of Saccharomyces cerevisiae with 30 samples.

Results

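The excision effect at 120 min is the transcript response of haploid budding yeast to the removal of 1 centromere, read 120 min after beta-estradiol was added. For each gene it is the log2 change of cen4- cells at 120 min since their own 0 min sample, called CEN4*, minus the log2 change of CEN4 cells over the same 120 min. Of the 30 libraries in the series 12 enter it, 3 in each of 4 groups: cen4- at 120 min, CEN4* at 0 min, CEN4 at 120 min and CEN4 at 0 min. It was obtained for 5948 of the 7127 genes in the deposited table, those whose mean over all libraries reached 10 normalised counts. Changes were taken on log2(normalised count + 1), so that those of weakly expressed genes are understated.

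All 4 groups were MATa cells of the S288c background, grown in YPD (a rich glucose medium) at 30 °C, and all carried met15-delta-0, leu2-delta-0, ura3-delta-0 and his3-delta-1. The cen4- and CEN4* samples are the same strain, with lox-CEN4-lox:KanMX (the centromere of chromosome IV between recombination sites for Cre) and GDP-creEBD78:LEU2 (Cre joined to an estradiol-binding domain, under the GDP promoter). The CEN4 strain had the recombinase as ura3::GDP-cre EBD78:LEU2 and no lox sites at the centromere. Both strains received 1 µM beta-estradiol, so a response to the hormone or to time that they share drops out of the effect. Differences between the strains other than the lox sites, such as the KanMX marker, cannot be told apart from excision where they alter the course over time. The table does not hold the share of cells that had lost the centromere.

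A centromere is the stretch of DNA on which the kinetochore assembles, the protein complex that ties a chromosome to the spindle. In budding yeast it is a point centromere: a short element, CDEI, bound by Cbf1, an A/T-rich spacer, CDEII, wrapped by the Cse4 nucleosome, and a second conserved element, CDEIII, bound by the CBF3 complex. A chromosome without it cannot attach to the spindle and is passed to daughter cells unevenly. The gain of a whole chromosome in yeast is known to raise most transcripts of that chromosome and to bring on a general stress response, slower growth and a load of unpaired protein subunits.

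The 12 libraries held 9262576 to 14875855 reads, and their replicate pairs differed by more than counting noise (chi-square per degree of freedom of 1.49 to 6.28 over 12 pairs). URA3 and MET17 (also called MET15), both deleted per the labels, had 0 reads in every library. LEU2, the marker joined to the recombinase, was lower in the strain with the excisable centromere at both times, and its effect was -0.45 (SE 0.06). The 7 a-cell markers were present in every group. Their summed level was 25209 to 25592 normalised counts in cen4- cells at 120 min, 44701 to 46436 in CEN4* cells at 0 min, 36107 to 37480 in CEN4 cells at 120 min and 52935 to 54057 in CEN4 cells at 0 min. The 4 alpha-cell markers summed to 606 to 781 over these libraries and the 8 markers of meiotic diploids to 1129 to 1361.

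After 120 min the strains had parted in many genes, mostly by small amounts. Chaperone genes, sulfur assimilation genes and genes of chromosome IV were higher in cen4- cells relative to CEN4, and genes of ribosomal proteins, of purine and one-carbon synthesis and of mating were lower. By limma 1550 of 5948 genes had an adjusted p below 0.05 (26.1%), 707 above 0 (11.9%) and 843 below 0 (14.2%). Such genes are called higher or lower here. The shares of 11.9% and 14.2% are the background for the list counts of this fit below. Of the 707 higher genes 14 changed at least 2-fold, and of the 843 lower genes 30 did. The median standard error of an effect was 0.08. In bulk RNA fewer cells of a type and less RNA per cell cannot be told apart. In 702 of the 707 higher and 837 of the 843 lower genes, the changes of the 3 cen4- libraries lay on one side of those of the 3 CEN4 libraries. These changes were taken from the 0 min mean of each strain, so the spread of the 0 min libraries is not in them. The same libraries gave the calls, so this describes the called genes and adds no support. Libraries were also set to an equal sum, called scaling to the same total below. The split was then 1381 genes above 0 and 501 below, with a median effect of all genes of 0.08 in place of -0.01. List counts under that scaling have this split of 5948 genes as their background. With a trend of the effect over gene length removed, 516 of 5717 genes were higher and 705 lower, the background for list counts so adjusted.

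The effect was laid over a large change that both strains went through. Within cen4- 4282 of 5948 genes changed since 0 min (72.0%), and within CEN4 4197 did (70.6%). A higher effect therefore did not always mean a rise in cen4- cells. Of the 707 higher genes 221 rose in both strains but more in cen4-, 155 rose in cen4- with no call in CEN4, 57 rose in cen4- and fell in CEN4, 124 fell in CEN4 with no call in cen4-, 143 fell in both and 7 were called in neither strain. Of the 843 lower genes 300 fell in both, 165 fell in cen4- with no call in CEN4, 45 fell in cen4- and rose in CEN4, 123 rose in CEN4 with no call in cen4-, 201 rose in both and 9 were called in neither. In the direct comparison of cen4- with CEN4 at 120 min 3140 genes differed (52.8%). It had the sign of the effect and was called for 671 of the 707 higher and 766 of the 843 lower genes.

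**Figure D1:**
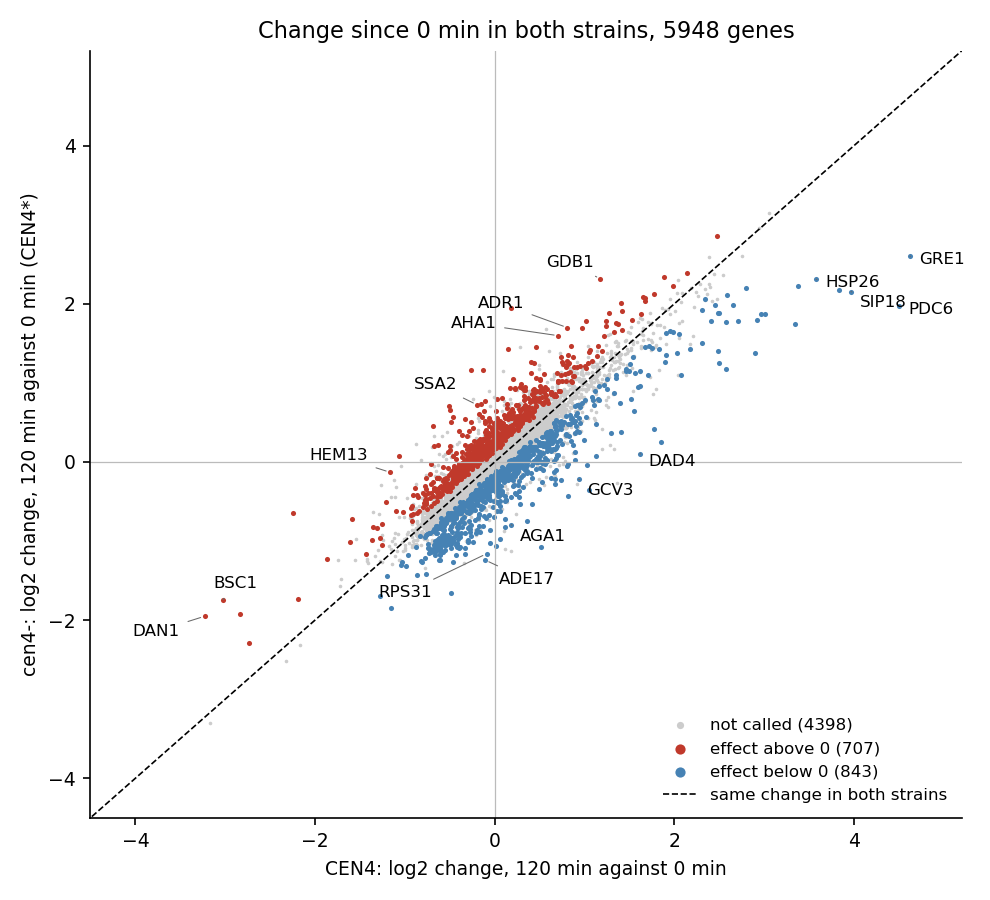
Each point is 1 of 5948 genes, with the log2 change since 0 min in CEN4 cells on the horizontal axis and that in cen4- cells on the vertical axis. Genes above the dashed line of equal change include 707 called higher (red) and those below it 843 called lower (blue), while most genes lie close to the line, and PDC6, GRE1 and SIP18 rose in both strains but far less in cen4-.

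The strains were not identical before excision, and this touches the largest negative effects. At 0 min 945 genes differed between CEN4* and CEN4 (15.9%). Of the 843 lower genes 79 had been higher in CEN4* at 0 min and 202 lower, and of the 707 higher genes 131 had been higher and 28 lower. In 23 lower genes cen4- cells still exceeded CEN4 cells at 120 min. HSP12, a small membrane-binding stress protein, is 1 of them, with 30068, 29095 and 26565 normalised counts in cen4- cells at 120 min and 7236, 7896 and 8324 in CEN4* cells at 0 min, against 17288, 19131 and 20071 in CEN4 cells at 120 min and 1903, 2939 and 2258 at 0 min. Its cen4- libraries at 120 min were the highest of all 12, and its effect was -1.14. Only INH1, an inhibitor of the ATP synthase, and WSC4, a cell surface stress sensor, were higher by the effect and lower in the direct comparison, and both are named here after their values were seen. INH1 lost its call on the effect in edgeR, in DESeq2 and in several fits that leave out a library.

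Among genes with at least 100 normalised counts, the largest positive effects were of mixed function, and 7 of the 12 largest lay on chromosome IV. HEM13, the oxygen-dependent coproporphyrinogen oxidase of heme synthesis, had 1893, 1905 and 1863 normalised counts in cen4- cells at 120 min and 2094, 2065 and 2038 in CEN4* cells at 0 min, against 911, 926 and 975 in CEN4 cells at 120 min and 2159, 2136 and 2010.2 at 0 min. It fell in both strains, far more in CEN4, and the 120 min libraries of the strains did not overlap (effect 1.03, SE 0.06, limma adjusted p = 3.85e-21). GDB1, the glycogen debranching enzyme, had 1741, 1639 and 1731 normalised counts in cen4- cells at 120 min and 346, 325 and 355 in CEN4* cells at 0 min, against 554, 643 and 616 in CEN4 cells at 120 min and 252, 258 and 291 at 0 min. The gene rose in both strains and more in cen4- (1.14, SE 0.09, limma adjusted p = 1.16e-16). SER3, an enzyme of serine synthesis that overlaps the noncoding YNCE0017W and is uncertain for that reason, had 937, 956 and 951 normalised counts in cen4- at 120 min, 768, 649 and 593 in CEN4* at 0 min, 422, 428 and 403 in CEN4 at 120 min and 604, 588 and 562 in CEN4 at 0 min. It was higher at 120 min than at 0 min in cen4- and lower in CEN4, with an effect of 0.99. DAN1, a wall protein of cells without oxygen, had 67.5, 71.3 and 62 normalised counts in cen4- at 120 min, 291, 249.5 and 246 in CEN4* at 0 min, 17.8, 11 and 20.1 in CEN4 at 120 min and 155, 159 and 157 in CEN4 at 0 min. It fell in both strains, less in cen4- (1.28, SE 0.32, limma adjusted p = 0.00223).

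The other genes among these 12 moved in both directions over time. BSC1 and PRM7, neighbours on chromosome IV left of the centromere, stood at 1.28 (SE 0.29) and 0.92 (SE 0.25) and fell steeply in both strains. SSA2, a cytosolic Hsp70, stood at 0.92, AHA1, an activator of Hsp90, at 0.89 and ADR1, a transcription factor of genes for growth without glucose, at 0.89. JID1, a J-domain protein, stood at 0.88. AAD4 (0.88) has a near-identical copy, AAD14, and YDR365W-B (0.88) is a Ty1 element with many copies, so that reads may be shared between copies. SSA2 likewise has the copy SSA1. Among genes under 100 normalised counts the largest positive effects were those of HXT10, a hexose transporter (1.76, SE 0.49), SOE1 (1.60, SE 0.53) and YPL205C (1.43, SE 0.53), which lost its call in edgeR and without any 1 of several libraries. HXT10 had 49.7, 41.9 and 41 normalised counts in cen4- at 120 min, 10.8, 12.9 and 8.88 in CEN4* at 0 min, 6.68, 11 and 5.28 in CEN4 at 120 min and 6.55, 7.99 and 4.9 in CEN4 at 0 min. Its 3 cen4- libraries at 120 min were well apart from the other 9.

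The largest negative effects were mostly those of stress and starvation genes that had been high in CEN4* before excision. Of the 12 largest 10 were higher in CEN4* than in CEN4 at 0 min, and 6 were lower in cen4- than in CEN4 at 120 min. PDC6, a minor pyruvate decarboxylase, had 313, 314 and 277 normalised counts in cen4- cells at 120 min and 58.1, 94.2 and 79.9 in CEN4* cells at 0 min, against 332, 351 and 415 in CEN4 cells at 120 min and 18.6, 10.3 and 18 at 0 min. The 120 min levels of the strains lay close together and the 0 min levels far apart, which gave an effect of -2.53, SE 0.22, limma adjusted p = 4.61e-12. GRE1, a hydrophilin of desiccated cells, had 2456, 2458 and 2108 normalised counts in cen4- cells at 120 min and 355, 381 and 417 in CEN4* cells at 0 min, against 3556, 3815 and 4026 in CEN4 cells at 120 min and 138, 195 and 134 at 0 min. Here cen4- was also lower than CEN4 at 120 min (-2.02, SE 0.19, limma adjusted p = 2.41e-08). HSP26, a small heat-shock protein, had 15919, 15925 and 14471 normalised counts in cen4- at 120 min, 2822, 3183 and 3349 in CEN4* at 0 min, 11875, 13749 and 14266 in CEN4 at 120 min and 941, 1352 and 1070.0 in CEN4 at 0 min. Its cen4- libraries at 120 min all exceeded those of CEN4, a difference that was not called, and its effect was -1.27.

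Negative effects of the same kind were those of SIP18, a hydrophilin (-1.81), SPS100, a spore wall protein (-1.66), ALD3, an aldehyde dehydrogenase (-1.59), PAI3, an inhibitor of vacuolar proteinase A (-1.51), HXT5, a hexose transporter of slow growth (-1.24), and CTT1, the cytosolic catalase (-1.15). SPS100 overlaps a noncoding RNA and ALD3 has the near-identical copy ALD2, so both are uncertain. Of the other 3, DAD4 and RDT1 did not differ by the test at 0 min, and GCV3 was 0.13 higher in CEN4*. RDT1, a short reading frame of 87 bases, had 679, 691 and 603 normalised counts in cen4- at 120 min, 469, 488 and 522 in CEN4* at 0 min, 1855, 2062 and 1938 in CEN4 at 120 min and 503, 624 and 584 in CEN4 at 0 min. Its level rose mainly in CEN4 (-1.36, SE 0.13, limma adjusted p = 7.77e-09). Weakly expressed genes with large negative effects were ANS1 (-1.60, SE 0.59), COS12, a subtelomeric gene (-1.41, SE 0.33), and YOR248W, a dubious reading frame (-1.60, SE 0.60). COS12 was still 1.12 higher in cen4- than in CEN4 at 120 min. YOR248W lost its call with the replicate number as a block, in edgeR and in several fits that leave out a library, and ANS1 when a trend of the effect with gene length was removed and in several such fits.

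**Figure D2:**
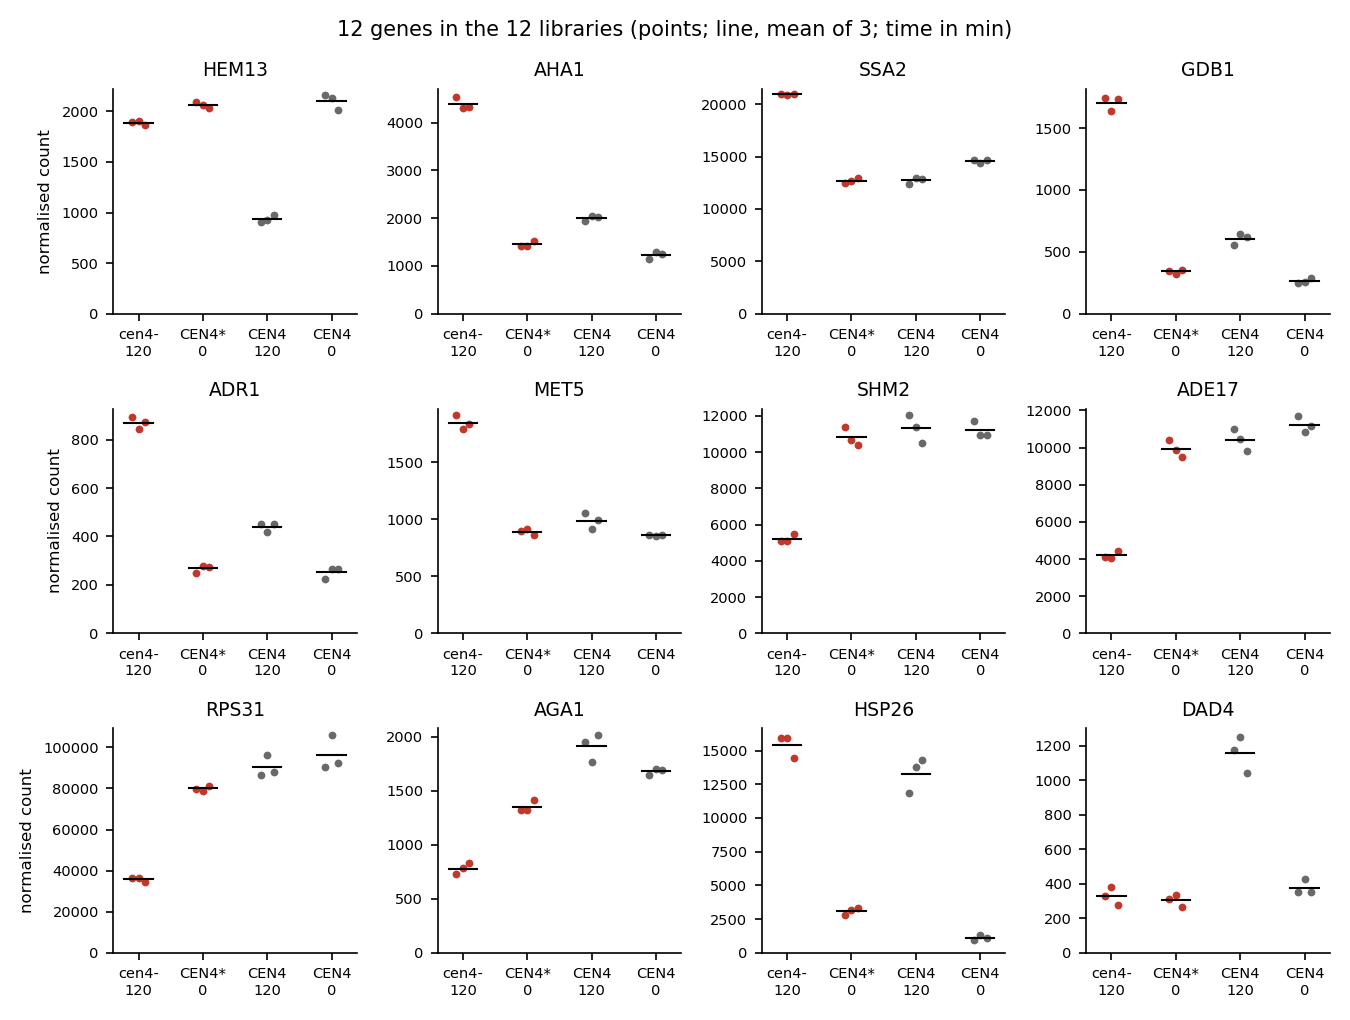
Normalised counts of 12 genes in the 12 libraries, each point a library and each line the mean of 3, with cen4- at 120 min, CEN4* at 0 min, CEN4 at 120 min and CEN4 at 0 min from left to right. HEM13, AHA1, SSA2, GDB1, ADR1 and MET5 stand higher and SHM2, ADE17, RPS31, AGA1 and DAD4 lower in cen4- than in CEN4 at 120 min, whereas HSP26 differs mainly at 0 min.

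Genes of chromosome IV, which carries the excised centromere, were higher as a group. Of 768 tested genes on it 209 were higher and 55 lower, and of 5177 genes on the other 15 nuclear chromosomes 498 were higher and 788 lower. Chromosome IV thus held 12.9% of the tested genes, 29.6% of the higher ones and 6.52% of the lower ones. The median effect was 0.11 on chromosome IV and -0.02 elsewhere. Already at 0 min 90 of the 768 genes were higher in CEN4* than in CEN4 and 25 were lower. Elsewhere 435 of 5177 were higher at 0 min and 395 lower. The median difference at 0 min was 0.04 on chromosome IV and -0.01 elsewhere. The shift of the chromosome, the median log2 change of its genes since 0 min minus that of all other nuclear genes, was 0.127, 0.151 and 0.141 in the 3 cen4- libraries at 120 min and 0.0055, -0.0029 and -0.0283 in the 3 CEN4 libraries. The groups did not overlap, and their means differed by 0.148, or 10.8% (exact permutation test, two-sided, p = 0.1, the smallest p that 3 against 3 libraries allow; adjusted over 16 chromosomes p = 0.178). The 0 min mean of each strain was held fixed, so the p and the gap do not include the spread of the 0 min libraries. More cells with an extra copy of the chromosome and more RNA per copy cannot be told apart either.

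No other chromosome stood so far from 0. The strains did not overlap for 9 of the 16 chromosomes, all with the same p of 0.1, but on the other 15 the difference of means ran from -0.08 to 0.01. Chromosomes III (-0.08) and V (-0.07) came next in size, both below 0. Chromosome XII was the only one besides IV with a positive difference and no overlap, at 0.01.

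**Figure D3:**
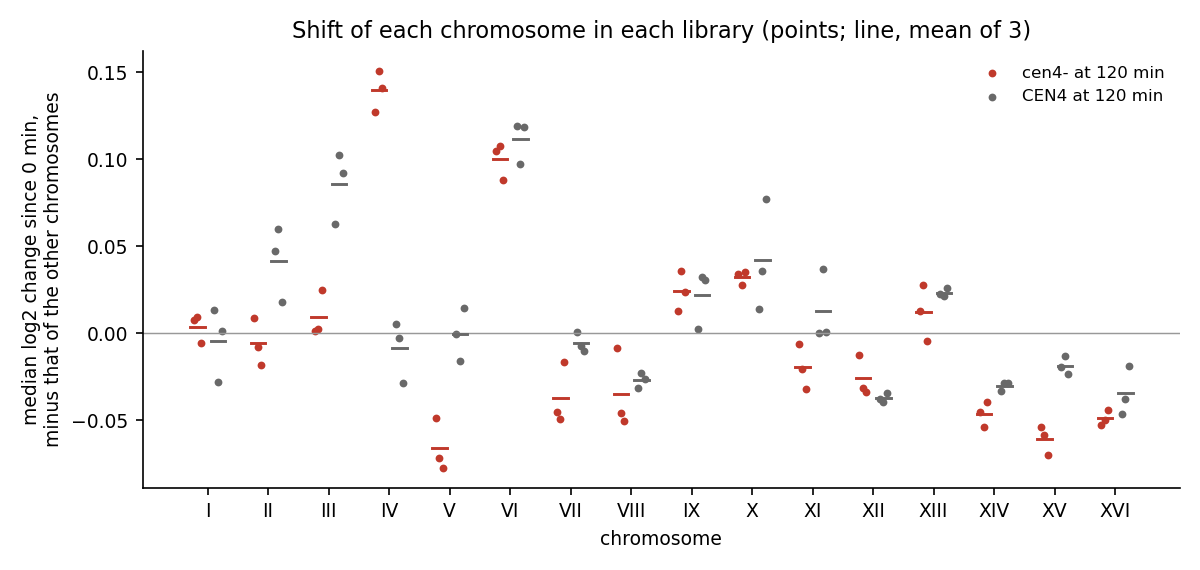
For each of the 16 chromosomes, the median log2 change of its genes since 0 min minus that of all other nuclear genes is plotted on the vertical axis, for the 3 cen4- libraries (red, left) and the 3 CEN4 libraries (grey, right) at 120 min, with lines at the means. On chromosome IV the cen4- libraries lie at 0.127 to 0.151 and the CEN4 libraries near 0.

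The rise spread over the whole of chromosome IV. On the left arm 67 of 227 genes with a position in R64 were higher (median 0.12), and on the right arm 141 of 516 were (median 0.12). In 16 windows of 100 kb the median effect lay between 0.07 and 0.15, all above 0. Of the 6 nearest tested genes only RMD1, which acts in meiotic nuclear division, was called, at 0.28 (SE 0.10). On the whole chromosome 209 of 768 genes were higher and 55 lower, and 6 genes are too few to tell from that share. The 100 kb windows left and right of CEN4 had medians of 0.09 and 0.11. RMD1 lost its call without replicate 1 of CEN4 at 0 min, replicate 2 or 3 of CEN4 at 120 min, replicate 3 of CEN4* at 0 min, or replicate 2 or 3 of cen4- at 120 min. MCD1, the cohesin subunit beside the centromere on the left, stood at 0.00 (SE 0.07) and NHP10, a subunit of the INO80 remodeler, at 0.00 (SE 0.07). On the right the neutral trehalase NTH1 stood at -0.02, the Ran-binding protein YRB1 at -0.01 and RCR2 at 0.22 (limma adjusted p = 0.0568). MCD1 had 1327, 1332 and 1336 normalised counts in cen4- at 120 min, 992, 987 and 1028 in CEN4* at 0 min, 1215, 1165 and 1229 in CEN4 at 120 min and 969, 785 and 983 in CEN4 at 0 min. It rose in both strains by 0.41 on the log2 scale.

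**Figure D4:**
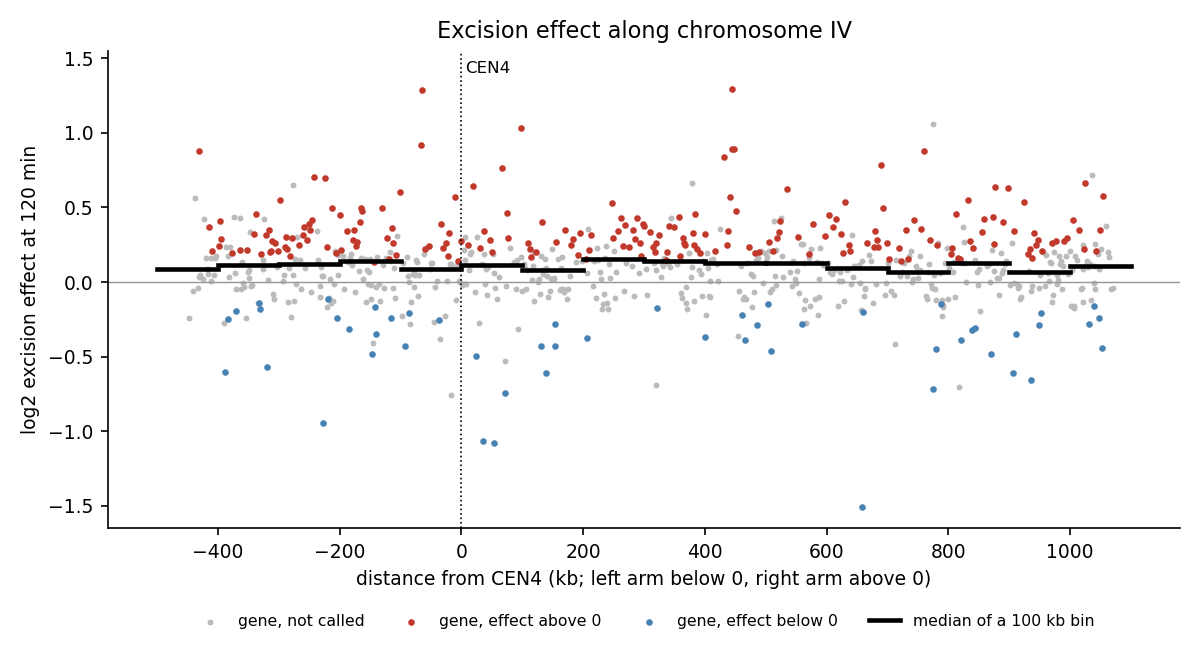
Log2 excision effect at 120 min of the genes of chromosome IV against their distance from CEN4 in kb, left arm below 0 and right arm above 0. Called genes are coloured, and the black bars, the medians of 100 kb windows, lie between 0.07 and 0.15 along both arms.

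Ribosomal protein genes gave a comparison within families, since many have a copy on chromosome IV and a copy elsewhere. In 12 such pairs the copy on chromosome IV stood above its partner in 11, with a median difference of 0.35 and medians of -0.14 on chromosome IV and -0.48 off it. RPL13A on chromosome IV had an effect of -0.04, against -0.43 for RPL13B, RPL31A had -0.04, against -0.47 for RPL31B, and RPS16B had -0.17, against -0.69 for RPS16A. RPS17B was the exception, at -0.61, against -0.50 for RPS17A. Of the copies on chromosome IV 4 were called lower, and of their partners 12. In 6 of the pairs an alignment over 90% identical covered much of the gene span, introns included, so that shared reads may draw their values together. This search does not show that the other pairs are free of shared reads.

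Genes that act in protein folding under the heat-shock factor Hsf1 were mostly higher in cen4- cells. Hsf1 is the transcription factor that drives chaperone genes when unfolded protein binds the chaperones that hold it back. Of 24 targets 19 were higher and none lower, with a median effect of 0.44, against 11.9% higher and a median of -0.01 over all genes. Already at 0 min 11 of the 24 were higher in CEN4* than in CEN4 and 1 was lower (median 0.09). Over all 5948 genes 525 were higher at 0 min. Of the list 22 members rose since 0 min in cen4- and 18 in CEN4, with a median change of 1.02 in cen4- and 0.68 in CEN4. Off chromosome IV 17 of the 22 targets were higher, and with the trend over gene length removed 19 of the 24 were.

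The Hsp70 and Hsp90 machines led this group. SSA2 had 20955, 20841 and 21006 normalised counts in cen4- cells at 120 min and 12508, 12657 and 12904 in CEN4* cells at 0 min, against 12342, 12958 and 12868 in CEN4 cells at 120 min and 14639.5, 14392 and 14666 at 0 min. Every cen4- library at 120 min exceeded all other 9 libraries (0.92, SE 0.05, limma adjusted p = 3.01e-24). STI1, which links Hsp70 to Hsp90, had 6063, 6164 and 5964 normalised counts in cen4- at 120 min, 2471, 2559.7 and 2617 in CEN4* at 0 min, 2932, 3153 and 3216 in CEN4 at 120 min and 2233, 2297 and 2306 in CEN4 at 0 min. It rose in both strains and more in cen4- (0.81, SE 0.06, limma adjusted p = 6.31e-18). HSC82, the constitutive Hsp90, had 20281, 20084 and 20255 normalised counts in cen4- at 120 min, 11609, 11585 and 11716 in CEN4* at 0 min, 11569.9, 12209 and 12004 in CEN4 at 120 min and 12078, 11407 and 11735 in CEN4 at 0 min. It rose in cen4- and was not called in CEN4 (0.77, SE 0.05, limma adjusted p = 8.93e-21). HSC82 shares near-identical sequence with HSP82. AHA1, on chromosome IV, had 4536, 4306 and 4325 normalised counts in cen4- at 120 min, 1424, 1410.5 and 1518 in CEN4* at 0 min, 1943, 2052 and 2021 in CEN4 at 120 min and 1155, 1289 and 1241 in CEN4 at 0 min, and its effect was 0.89, SE 0.07, limma adjusted p = 2.18e-17.

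Promoters of these genes were searched for the heat-shock element, written as GAANNTTCNNGAA and read on both strands in the 300 bases before each gene. It occurred in 9 of the 24 targets (37.5%) and in 50 of 5714 genes with such a window (0.875%). Of the 9 targets that held it 8 were higher, and of the 15 without it 11 were, with a median effect of 0.38 with it and 0.47 without. The following windows of 30 bases, from R64 and written 5′ to 3′ on the strand of the gene, show the element in capitals, since these genes were among the higher ones and carry the exact letters. They lie at chrXV:380829-380858 (plus strand) for STI1, chrXII:97697-97726 (minus strand, with the element on the opposite strand) for SSA2, chrIV:806375-806404 (plus strand) for HSP42 and chrXII:665191-665220 (minus strand) for HSP60.
STI1: gtatgataGAACATTCCAGAAaaaaaattc
SSA2: aagtttttTTCTAGAACATTCcatcgaaga
HSP42: aagttctgGAAGGTTCGCGAAttgagaact
HSP60: acctcgtgGAATTTTCCAGAAaaccaaatg
A match is a description of letters only. HSP42, a small heat-shock protein, had an effect of 0.44 and HSP60, the mitochondrial chaperonin, of 0.43.

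Other protein quality genes split by chromosome. The 8 subunits of the cytosolic chaperonin, which folds actin and tubulin, held 3 higher members, CCT4 (0.35), TCP1 (0.34) and CCT6 (0.22), all on chromosome IV, and none of the 5 others was called. Of 33 proteasome subunits and regulators 7 were higher and 5 lower. All 6 on chromosome IV were higher (median 0.45), and of the 27 elsewhere 1 was higher and 5 were lower. RPT2, an ATPase of the proteasome base, had 7918, 7936 and 7639 normalised counts in cen4- cells at 120 min and 4134, 4283 and 4129 in CEN4* cells at 0 min, against 4296, 4306 and 4587 in CEN4 cells at 120 min and 3466, 3412 and 3552 at 0 min. Its cen4- libraries at 120 min were well above the rest (0.57, SE 0.05, limma adjusted p = 1.84e-13). RPN6 (0.48) and RPN9 (0.44), lid subunits, and RPT3 (0.46), another base ATPase, followed. The 5 lower members became 1 with the length trend removed and 1 with scaling to the same total.

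In the unfolded protein response of the endoplasmic reticulum 2 of 14 genes were higher and 4 lower (median -0.10). KAR2, the Hsp70 of that compartment, was higher, at 0.38, with 15728, 16363 and 15835 normalised counts in cen4- at 120 min, 8956, 9185 and 9084 in CEN4* at 0 min, 11505, 11768 and 12637 in CEN4 at 120 min and 8618, 8688 and 9223 in CEN4 at 0 min, and so was ERO1, its thiol oxidase, at 0.34. HAC1, the transcription factor of the response, was lower (-0.51, SE 0.14), with 4155, 4148 and 3882 normalised counts in cen4- at 120 min, 3821, 3918 and 4039 in CEN4* at 0 min, 6685, 7123 and 6961 in CEN4 at 120 min and 4142, 5626 and 4473 in CEN4 at 0 min. HAC1 rose in CEN4 and was not called in cen4-. DER1, a retrotranslocation factor, was lower at -0.43.

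**Figure D5:**
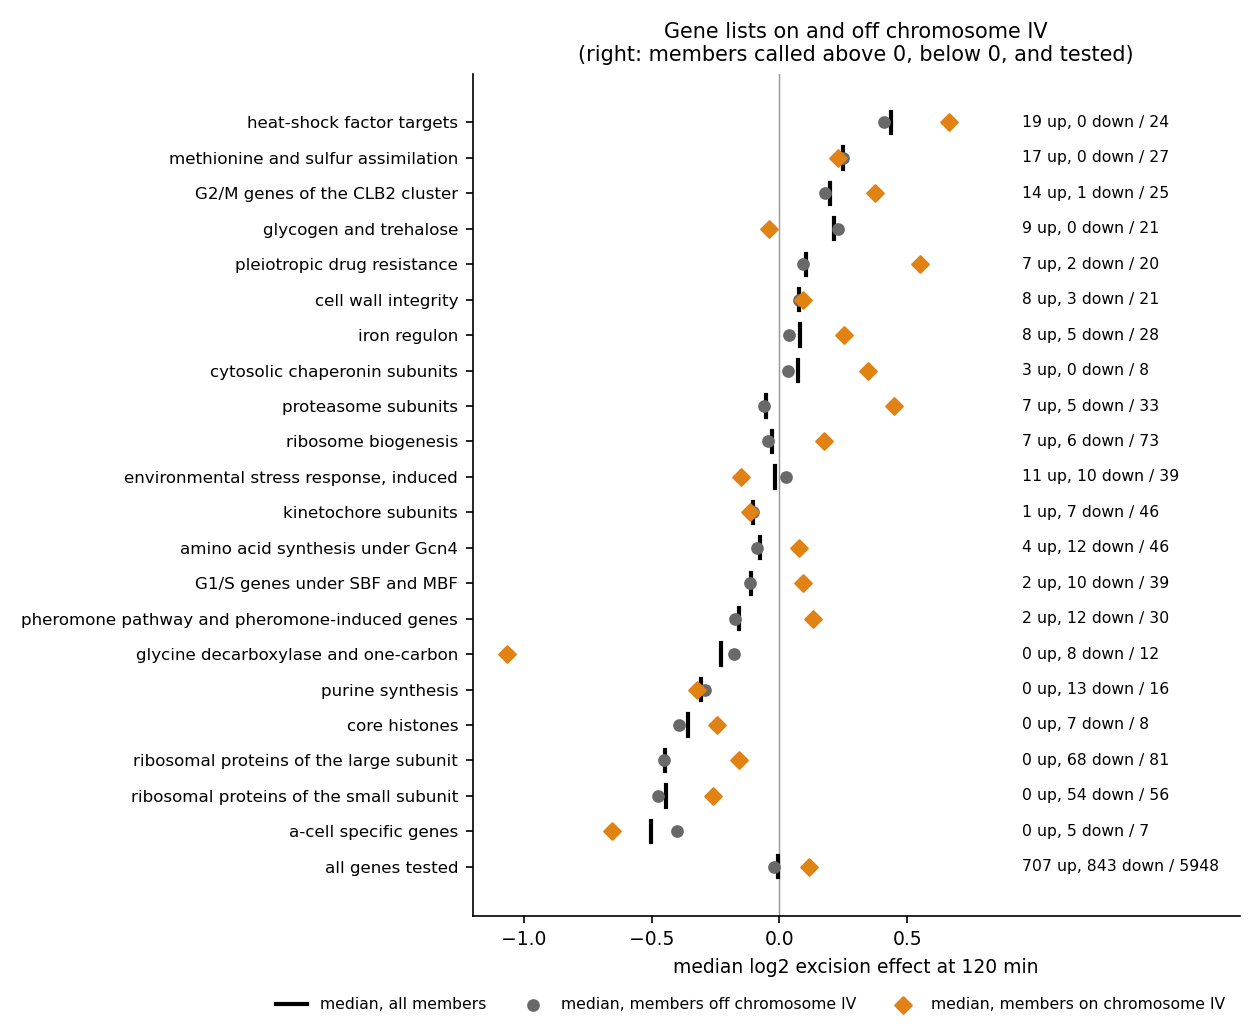
Median log2 excision effect at 120 min of 21 gene lists and of all 5948 tested genes, for all members (bar), for members off chromosome IV (grey circle) and for members on it (orange diamond), with the numbers called higher (up) and lower (down) on the right. Heat-shock factor targets and sulfur genes lie right of 0 and ribosomal proteins, a-cell genes and histones left of it both on and off chromosome IV, whereas proteasome, chaperonin and ribosome biogenesis genes lie right of 0 for members on chromosome IV and near it for the others.

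Ribosomal protein genes were lower almost without exception. Of the 81 genes of the large subunit 68 were lower, and of the 56 of the small subunit 54, with none higher and a median of -0.45 in each, against 14.2% lower over all genes. They fell in both strains since 0 min, by a median of 1.00 and 0.99 log2 units in cen4- and of 0.55 and 0.54 in CEN4. Already at 0 min 58 of the 81 and 47 of the 56 were lower in CEN4* than in CEN4 (medians -0.15 and -0.17). Over all 5948 genes 420 were lower at 0 min. RPS31, which encodes a ribosomal protein fused to ubiquitin, had 36543, 36320.2 and 34664 normalised counts in cen4- cells at 120 min and 79976, 78994 and 81292 in CEN4* cells at 0 min, against 86664, 96093 and 88126 in CEN4 cells at 120 min and 90371, 105876 and 92435 at 0 min. The 3 cen4- libraries at 120 min lay far below the other 9 (-1.07, SE 0.09, limma adjusted p = 5.62e-09). RPL43B had 11853, 11894 and 10003 normalised counts in cen4- at 120 min, 21671, 22362 and 22339.8 in CEN4* at 0 min, 28719, 29725 and 27552 in CEN4 at 120 min and 24956, 31150.0 and 26619 in CEN4 at 0 min. It fell in cen4- and was not called in CEN4 (-1.04, SE 0.12, limma adjusted p = 6.89e-07). RPL33B (-0.97), RPL41B (-0.95) and RPL23B (-0.81) of the large subunit and RPS18B (-0.77), RPS23A (-0.73) and RPS22B (-0.69) of the small one were the next largest. RPS22B overlaps a noncoding RNA, and RPL41B spans 78 bases.

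Most of the lower members lay off chromosome IV. There 62 of 68 large-subunit genes were lower (median -0.45) and 50 of 50 small-subunit genes (median -0.47). On chromosome IV 6 of 13 (median -0.16) and 4 of 6 (median -0.26) were. The medians of ribosomal protein genes were -0.49, -0.44, -0.45 and -0.40 in 4 classes of rising gene length.

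Other genes of ribosome production did not follow them. Of 73 genes of ribosome biogenesis 7 were higher and 6 lower (median -0.03). The 7 higher ones all lay on chromosome IV, among 11 members there, and off it none of the others was higher and 6 were lower. UTP6 (0.34), NOP14 (0.32), UTP4 (0.26) and DBP10 (0.24), which all process pre-rRNA, were the largest. The list fell in both strains by similar amounts, a median of 0.65 in cen4- and 0.64 in CEN4. Its counts were unsteady, with 16 higher and 1 lower under scaling to the same total, and 16 lower without replicate 3 of CEN4 at 120 min. Of 24 subunits of RNA polymerases I and III 6 were lower and none higher (median -0.11), among them RPC17 (-0.60), RPO26 (-0.26), RPB10 (-0.23) and RPC10 (-0.23). Under scaling to the same total 3 were lower and 4 higher, and with the length trend removed 3 lower and 1 higher. With the length trend removed 3 were lower.

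Of 37 translation factors 3 were higher and 6 lower (8.11% and 16.2%, median -0.06), against 11.9% and 14.2% over all genes. CDC33, the cap-binding protein, was lower (-0.30), as was the initiation factor TIF11 (-0.20), while GCD6, a subunit of an initiation factor encoded on chromosome IV, was higher (0.25). ANB1, the form of the elongation factor eIF5A made without oxygen, was higher (0.45), with 351, 375 and 299 normalised counts in cen4- at 120 min, 1167, 1135 and 1105 in CEN4* at 0 min, 207, 261 and 208 in CEN4 at 120 min and 1059.8, 1023 and 989 in CEN4 at 0 min. It shares reads with its near copy HYP2. The number of lower factors was 1 under scaling to the same total and 11 without replicate 3 of CEN4 at 120 min.

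Mating genes were lower in cen4- cells. The list of a-cell specific genes, which define the labelled cell type, had 5 of 7 members lower and none higher (median -0.50). Of 30 genes of the pheromone pathway and its targets 12 were lower and 2 higher (median -0.16), against 14.2% lower over all genes. Already at 0 min 6 of the 7 a-cell genes were lower in CEN4* than in CEN4 (median -0.23). Of the 30 pheromone genes 6 were lower at 0 min and 1 higher (median -0.06), against 420 lower of all 5948 genes. AGA1, the anchor of the a-agglutinin that sticks mating cells together, had 726, 782 and 829.5 normalised counts in cen4- cells at 120 min and 1318, 1325 and 1410.2 in CEN4* cells at 0 min, against 1949.7, 1765 and 2015 in CEN4 cells at 120 min and 1647, 1697 and 1694 at 0 min. Its level fell in cen4- and rose a little in CEN4 (-0.98, SE 0.08, limma adjusted p = 8.82e-15). FUS1, a cell fusion protein, had 256, 295 and 256 normalised counts in cen4- at 120 min, 279, 298 and 307 in CEN4* at 0 min, 565, 539.7 and 520.3 in CEN4 at 120 min and 324, 379.9 and 326 in CEN4 at 0 min. It rose in CEN4 and was not called in cen4- (-0.79, SE 0.10, limma adjusted p = 8.92e-09). BAR1, the protease that cuts alpha factor, had 3159.9, 3449.6 and 3380.0 normalised counts in cen4- at 120 min, 4929, 5021 and 4927 in CEN4* at 0 min, 5830.1, 5505 and 5960.1 in CEN4 at 120 min and 5778, 5797 and 5927 in CEN4 at 0 min. It fell in cen4- and was not called in CEN4 (-0.56, SE 0.05, limma adjusted p = 1.4e-13). MFA1, a gene of a-factor of only 111 bases, was lower (-0.65), as were AGA2 (-0.50), ASG7 (-0.50), FIG1 (-0.93, SE 0.34) and KAR4 (-0.56), a transcription factor of nuclear fusion. The pheromone-induced PRM5 was higher (0.45), and it also belongs to the cell wall list. FIG1 had under 100 normalised counts in every group and lost its call in edgeR, in DESeq2 and in several fits that leave out a library. With scaling to the same total 6 of the 30 genes were lower.

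The pheromone response element, TGAAAC on either strand of the 300 bases before a gene, stood before all 7 a-cell genes and before 17 of the 30 pheromone genes (56.7%), against 18.7% of 5714 genes. Of the 17 with it 9 were lower and 1 higher, and of the 13 without it 3 were lower and 1 higher. The windows of FUS1, chrIII:71615-71644 (plus strand), and AGA1, chrXIV:703485-703514 (plus strand), show it in capitals for the genes named above.
FUS1: atgaaacaaacaTGAAACgtctgtaatttg
AGA1: aacataattttcTGAAACaatattaaaaca
Of 27 meiosis and sporulation genes none was higher and only SPS100 was lower.

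Lists of cell cycle genes went different ways, in small steps, and an order by phase was not tested. Genes of the CLB2 cluster, which peak in G2 and M, were mostly higher: 14 of 25, with 1 lower and a median of 0.20. Since 0 min their median change was -0.12 in cen4- and -0.32 in CEN4. KIN3, a mitotic kinase, had 645, 635 and 630.2 normalised counts in cen4- at 120 min, 737, 770.0 and 765 in CEN4* at 0 min, 461, 514 and 452 in CEN4 at 120 min and 736, 836 and 734 in CEN4 at 0 min. It fell less in cen4- (0.44, SE 0.10, limma adjusted p = 0.000274). DBF2, a kinase of mitotic exit, had 1018, 1003 and 1029.7 normalised counts in cen4- at 120 min, 1037, 1052 and 1083 in CEN4* at 0 min, 740.4, 712 and 739 in CEN4 at 120 min and 1058, 923 and 1016 in CEN4 at 0 min. CEN4 at 120 min was the low group (0.39, SE 0.08, limma adjusted p = 3.66e-05). SWI5, on chromosome IV, a transcription factor of the next phase (0.37), and CHS2, the chitin synthase of the septum (0.35), were also higher. The count of higher genes in this cluster was 7 with the length trend removed and 9 without replicate 1 of CEN4 at 0 min. CDC20, the activator of the anaphase-promoting complex, was the only called gene of 14 in the spindle checkpoint and passenger list, at 0.20 with a limma adjusted p of 0.0475. It lost that call in edgeR, in DESeq2, with the length trend removed and in several fits that leave out a library.

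Genes of M/G1 under the transcription factor Mcm1 held 6 higher and 2 lower of 12 (median 0.19). The G1 cyclin CLN3 (0.48) and the replication helicase subunits MCM5 (0.41) and MCM7 (0.27) were higher, and STE2, the receptor for alpha factor, was lower (-0.30).

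Genes of G1/S under SBF and MBF held 2 higher and 10 lower of 39 (median -0.11). SVS1 (-0.51), the MBF repressor NRM1 (-0.33) and the cyclin PCL1 (-0.29) were lower, and GIC2, an effector of Cdc42 on chromosome IV, was higher (0.54). Of the 8 core histone genes 7 were lower (median -0.36). HHF1, a gene of histone H4, had 11083, 10755 and 10632 normalised counts in cen4- cells at 120 min and 8386, 8239 and 8281 in CEN4* cells at 0 min, against 15870.1, 16140.5 and 16462 in CEN4 cells at 120 min and 8371, 8455 and 8463 at 0 min. All groups at 120 min exceeded those at 0 min, and the gain in cen4- was the smaller one (-0.56, SE 0.04, limma adjusted p = 5.13e-16). HHT1 (-0.62), HTA2 (-0.45) and HTA1 (-0.39) followed. Each of these 4 has a near-identical copy, and histone genes are short, in classes of length whose median effect was below 0.

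The machinery that the excised DNA serves changed little, apart from short genes. Of 46 kinetochore subunits 7 were lower and 1 higher (15.2% and 2.17%, median -0.10), against 14.2% and 11.9% over all genes. DAD4, a subunit of the DASH complex that couples kinetochores to microtubules, had 329, 378 and 279 normalised counts in cen4- cells at 120 min and 314, 332 and 268 in CEN4* cells at 0 min, against 1177, 1253 and 1039.6 in CEN4 cells at 120 min and 354, 429 and 349 at 0 min. It rose in CEN4 and was not called in cen4- (-1.51, SE 0.17, limma adjusted p = 4.22e-07). WIP1 (-0.72), DAD3 (-0.63) and HSK3 (-0.53) were lower as well. These 4 genes span 219, 270, 285 and 210 bases, and all non-ribosomal genes of at most 300 bases had a median effect of -0.18. With the length trend removed all 4 kept their calls. CTF19, a kinetochore subunit that overlaps IRC15, was the higher one (0.38, SE 0.14), and it lost its call in edgeR, DESeq2 and several fits that leave out a library.

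Condensin, the complex that compacts mitotic chromosomes and that the series' title places at its centre, showed no called subunit among 5, and the median of its list was 0.01. SMC4, the most abundant of them, had 944, 1051 and 978 normalised counts in cen4- at 120 min, 943, 953 and 922 in CEN4* at 0 min, 905, 794 and 958 in CEN4 at 120 min and 954, 913 and 905 in CEN4 at 0 min. The groups overlapped, with an effect of 0.14 (SE 0.08) and a limma adjusted p of 0.179. Of 9 genes of cohesin and its loader only SCC4 was called, lower at -0.24. SCC4 lost that call under scaling to the same total and without replicate 3 of cen4- at 120 min. Among 24 genes of the DNA damage response RAD9, the checkpoint adaptor, was higher (0.48), with 972, 1047 and 1107 normalised counts in cen4- at 120 min, 884, 918 and 929.6 in CEN4* at 0 min, 638, 652 and 594 in CEN4 at 120 min and 785, 734 and 777 in CEN4 at 0 min. It lies on chromosome IV and is 3930 bases long. RNR1, the large subunit of ribonucleotide reductase, was lower (-0.26), as were DDR2 (-0.67) and IRC21 (-0.25). In the direct comparison at 120 min DDR2 was 0.56 higher in cen4- than in CEN4. IRC21 lost its call with the replicate number as a block, in DESeq2, under scaling to the same total, with the length trend removed and in several fits that leave out a library. Silencing proteins and histone deacetylases held 1 higher member of 18, HDA2, on chromosome IV (0.45), and 1 lower, HOS2 (-0.31).

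Genes of the environmental stress response, which yeast induces in almost any stress, did not move one way. Of 39 genes 11 were higher and 10 lower (28.2% and 25.6%), with a median of -0.02. They rose by a median of 1.75 in both cen4- and CEN4, and had differed by 0.51 at 0 min in favour of CEN4*. Among the lower ones HSP12 had stood 1.74 higher in CEN4* than in CEN4 at 0 min, HSP26 1.49, CTT1 1.38 and ALD3 1.36. Of the 5 hydrophilins, proteins that protect dried cells, 4 were lower: GRE1, SIP18, HSP12 and STF2 (-0.29). STF2 lost its call under scaling to the same total, with the length trend removed and in several fits that leave out a library, which left 3 of the 5 lower under either adjustment. At 120 min its level was higher in cen4- cells than in CEN4 cells, by 0.39 on the log2 scale. The stress response element AGGGG stood before 76.9% of the 39 genes and 22.5% of all 5714, and of 30 with it 8 were higher and 9 lower.

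Glycogen and trehalose genes, which build and break reserve carbohydrates, were higher where they were called: 9 of 21, with none lower (median 0.21). Over all genes 11.9% were higher. At 0 min 11 of the 21 were already higher in CEN4* than in CEN4 and 0 were lower (median 0.20), against 525 higher of all 5948 genes. GDB1 led, and TPS3, a regulatory subunit of trehalose synthase, had 1568, 1592 and 1668 normalised counts in cen4- at 120 min, 686, 802 and 751 in CEN4* at 0 min, 1078, 1053 and 1093 in CEN4 at 120 min and 731, 738 and 726 in CEN4 at 0 min. It rose in both strains and more in cen4- (0.56, SE 0.07, limma adjusted p = 2.53e-09). PIG1, a targeting subunit of a phosphatase (0.44, SE 0.14), and ATH1, the acid trehalase (0.43), followed. With the length trend removed 6 were higher.

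Genes of cell wall integrity held 8 higher and 3 lower of 21 (38.1% and 14.3%, median 0.08), against 11.9% and 14.2% over all genes. SLT2, the kinase at the end of this pathway, had 2099, 2214 and 2004 normalised counts in cen4- cells at 120 min and 1668, 1629 and 1607 in CEN4* cells at 0 min, against 1244, 1281 and 1262 in CEN4 cells at 120 min and 1276, 1256 and 1232 at 0 min. It rose in cen4- and was not called in CEN4 (0.36, SE 0.06, limma adjusted p = 2.35e-06). HSP150, an abundant secreted wall protein, had 21996, 22046 and 22701 normalised counts in cen4- at 120 min, 25510.2, 25631 and 25842 in CEN4* at 0 min, 15696, 16112 and 15906 in CEN4 at 120 min and 25214, 23773 and 25214 in CEN4 at 0 min. CEN4 cells lost more of it than cen4- cells did (0.43, SE 0.04, limma adjusted p = 1.8e-13). With the length trend removed 5 were higher. In the pleiotropic drug resistance list 7 of 20 were higher and 2 lower (median 0.11). TPO1, a polyamine exporter, had 1495, 1446 and 1391 normalised counts in cen4- at 120 min, 1361, 1263 and 1289.7 in CEN4* at 0 min, 821, 757 and 869 in CEN4 at 120 min and 1183, 1111 and 1164 in CEN4 at 0 min (0.65, SE 0.07, limma adjusted p = 1.01e-11). The ABC transporters SNQ2 (0.65) and PDR15 (0.55), both long genes on chromosome IV, and YGR035C (0.69) were higher. Among 22 antioxidant genes 3 were higher and 4 lower, with CTA1, the peroxisomal catalase on chromosome IV, higher (0.29) and GPX2 (-0.64) and TRX2 (-0.32) lower. CTA1 lost its call in DESeq2, with the length trend removed and in several fits that leave out a library.

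Genes that assimilate sulfur and make methionine were higher as a group. Of 27 tested members 17 were higher and none lower (median 0.25), against 11.9% higher over all genes. Both strains lack MET17, which joins sulfide to O-acetylhomoserine, so all groups share that block. MET5, a subunit of sulfite reductase, had 1916, 1787 and 1834 normalised counts in cen4- cells at 120 min and 892, 914 and 859.8 in CEN4* cells at 0 min, against 1056, 912 and 992 in CEN4 cells at 120 min and 861, 850.0 and 862 at 0 min. Only cen4- at 120 min was high (0.85, SE 0.07, limma adjusted p = 3.21e-16). MET3, the ATP sulfurylase, had 964, 980.1 and 825 normalised counts in cen4- at 120 min, 481, 463 and 446 in CEN4* at 0 min, 617, 637 and 642 in CEN4 at 120 min and 518, 548 and 486 in CEN4 at 0 min. It rose in both strains and more in cen4- (0.70, SE 0.09, limma adjusted p = 8.41e-10). MET14, the APS kinase, had 856, 904 and 914 normalised counts in cen4- at 120 min, 464, 448 and 476 in CEN4* at 0 min, 644, 617 and 615 in CEN4 at 120 min and 511, 496 and 474 in CEN4 at 0 min, with an effect of 0.61, SE 0.08, limma adjusted p = 1.46e-08. STR3, a cystathionine lyase, followed at 0.49 (SE 0.16).

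The motif of Met31 and Met32, TGTGGC on either strand, stood before 16 of the 27 genes (59.3%) and before 8.12% of 5714. Of the 16 genes with it 13 were higher (median 0.42), and of the 11 without it 4 were (median 0.09). The motif of Cbf1, CACGTG, which also occurs in CDEI of centromeres in a related form, stood before 8 (29.6%) and before 3.52% of all. Windows of the 3 named genes show the motif of Met31 and Met32 in capitals, on the opposite strand in MET5 and MET3. They lie at chrX:683543-683572 (minus strand), chrX:455973-456002 (plus strand) and chrXI:439560-439589 (minus strand).
MET5: ttaactcataatGCCACAattaccaccaca
MET3: ccgtataacaaaGCCACAgttttacaactt
MET14: cacctcaaaaaaTGTGGCaatggagaagag

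Genes of one-carbon metabolism and of purine synthesis, which share the activator Bas1, were lower. Of 12 genes of glycine decarboxylase and one-carbon units 8 were lower and none higher (median -0.23), and of 16 purine genes 13 were lower and none higher (median -0.31). SHM2, the cytosolic serine hydroxymethyltransferase, had 5073, 5067 and 5459 normalised counts in cen4- cells at 120 min and 11411, 10688 and 10412 in CEN4* cells at 0 min, against 12058, 11413 and 10521 in CEN4 cells at 120 min and 11716, 10966 and 10921 at 0 min. The 3 cen4- libraries at 120 min lay far below the other 9 (-1.07, SE 0.06, limma adjusted p = 4.69e-17). GCV3, the H subunit of glycine decarboxylase, had 2051, 1958 and 1923 normalised counts in cen4- cells at 120 min and 2281, 2296 and 2325 in CEN4* cells at 0 min, against 3998, 4254 and 3851 in CEN4 cells at 120 min and 2042, 2205 and 2082 at 0 min. It rose in CEN4 and fell slightly in cen4- (-1.15, SE 0.06, limma adjusted p = 2.03e-25). GCV2, the P subunit, had 1088, 1178 and 1218 normalised counts in cen4- at 120 min, 1071, 1096 and 1129.9 in CEN4* at 0 min, 2097, 1950.1 and 2007 in CEN4 at 120 min and 897, 882 and 990.0 in CEN4 at 0 min. It rose in CEN4 and was not called in cen4- (-1.05, SE 0.07, limma adjusted p = 1.88e-20). GCV1, the T subunit, on chromosome IV, was lower at -1.06.

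Purine genes fell in both strains and more in cen4-. At 0 min 6 of the 16 were already lower in CEN4* than in CEN4 and 1 was higher (median -0.08), against 420 lower of all 5948 genes. ADE17, which carries out the last steps of IMP synthesis, had 4092, 4079 and 4436 normalised counts in cen4- cells at 120 min and 10384, 9887 and 9505 in CEN4* cells at 0 min, against 11026, 10468 and 9806 in CEN4 cells at 120 min and 11724, 10832 and 11137 at 0 min. The 3 cen4- libraries at 120 min lay apart from all others (-1.13, SE 0.06, limma adjusted p = 2.05e-17). ADE1 had 3341, 3261 and 3422 normalised counts in cen4- at 120 min, 7935, 7599 and 7227 in CEN4* at 0 min, 6754, 6418 and 5766 in CEN4 at 120 min and 8828, 8146 and 8468 in CEN4 at 0 min (-0.75, SE 0.07, limma adjusted p = 2.87e-10). ADE2 (-0.68) and ADE13 (-0.62) were lower too. Under scaling to the same total 5 of the 12 one-carbon genes were lower.

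The Bas1 motif, TGACTC on either strand, which is also the core that Gcn4 binds, stood before 9 of the 16 purine genes (56.2%) and 9 of the 12 one-carbon genes (75.0%), against 7.88% of 5714 genes. Of the purine genes with it 8 were lower, and of the 7 without it 5. Of the one-carbon genes with it 7 were lower, and of the 3 without it 1. Windows of 4 lower genes show it in capitals, on the opposite strand in GCV3. They lie at chrXIII:509440-509469 for ADE17, chrXII:259661-259690 for SHM2, chrIV:485491-485520 for GCV1 and chrI:58558-58587 for GCV3, all on the minus strand.
ADE17: ccagaaatgaatTGACTCctctcataactt
SHM2: acacacgaaacaTGACTCctggtgagaaat
GCV1: gctcaggagcccTGACTCgtgttgcctcga
GCV3: cacttccgtaagGAGTCAttcagcggcgga

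Amino acid genes under Gcn4 did not share a direction with the Bas1 genes throughout. Of 46, 4 were higher and 12 lower (median -0.07). HIS4 (-0.61), GLN1, the glutamine synthetase (-0.63), and SER1 (-0.48) were lower, and SER3 was higher. HIS4 had 2112, 2142 and 2196 normalised counts in cen4- at 120 min, 3037, 3035 and 2955 in CEN4* at 0 min, 3544, 3638 and 3609 in CEN4 at 120 min and 3331, 3233 and 3305 in CEN4 at 0 min. The counts became 7 and 5 under scaling to the same total. Of 10 lysine genes 4 were higher and 3 lower, with the homocitrate synthases LYS20 (0.35) and LYS21 (0.24), copies of each other on chromosome IV, and LYS1 (0.26) higher and LYS5 (-0.40) lower. Among 22 permeases 4 were higher and 2 lower, with AGP1 (0.48), MUP3 for methionine (0.47) and SAM3 for S-adenosylmethionine (0.23) higher and the general permease GAP1 lower (-0.38). Under scaling to the same total 10 permeases were higher.

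The iron regulon held 8 higher and 5 lower of 28 (median 0.08). FIT3, a wall protein that retains siderophores, had 2073, 1934 and 1977 normalised counts in cen4- cells at 120 min and 3279, 3254 and 3357 in CEN4* cells at 0 min, against 645, 702 and 731 in CEN4 cells at 120 min and 2154, 1999 and 2091 at 0 min. It fell in both strains and less in cen4- (0.86, SE 0.07, limma adjusted p = 4.35e-17). HMX1, the heme oxygenase, had 309, 264 and 277 normalised counts in cen4- at 120 min, 108, 120.0 and 124 in CEN4* at 0 min, 84.6, 94.3 and 88.7 in CEN4 at 120 min and 74.2, 70.7 and 57.1 in CEN4 at 0 min. The cen4- level at 120 min stood apart from all others (0.86, SE 0.18, limma adjusted p = 0.000122). FIT1 was higher at 0.58 (SE 0.21) and lost its call in several fits. ATX1, a copper chaperone of 222 bases, was lower (-1.03), with 779, 764 and 668 normalised counts in cen4- at 120 min, 557, 585 and 555 in CEN4* at 0 min, 1731, 1831 and 1743 in CEN4 at 120 min and 648, 701 and 647 in CEN4 at 0 min. The phosphate list, which as written also holds the kinetochore gene CTF19, had 5 higher and 1 lower of 19, among them the regulator PHO81 (0.27), the phosphatase PHO5 (0.27) and the lower glycerol phosphatase GPP2 (-0.29). Without replicate 2 of CEN4* at 0 min 3 were higher. CTF19 lost its call in edgeR and DESeq2, and PHO81 with the length trend removed. GPP2, though lower by the effect, was 0.21 higher in cen4- than in CEN4 at 120 min. ZRT1, the high-affinity zinc importer, was the only called gene of 10 in the zinc regulon (0.35). Thiamine genes held 1 higher, PHO3 (0.23), and 3 lower of 20, THI6 (-0.35), THI80 (-0.32) and SNO2 (-0.64), a gene with a near copy that lost its call in DESeq2, under scaling to the same total and in several other fits.

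Carbon genes went both ways. Of 29 glycolysis and fermentation genes 6 were higher and 7 lower (median -0.03), with PDC5 (0.59), the acetaldehyde dehydrogenase ALD4 (0.50) and hexokinase HXK1 (0.38) higher and PDC6 lower. The counts were 9 and 3 under scaling to the same total. ALD4 had 4136, 4001 and 3855 normalised counts in cen4- at 120 min, 1006, 1061 and 1121 in CEN4* at 0 min, 1822, 1948 and 2169 in CEN4 at 120 min and 699, 753 and 769 in CEN4 at 0 min. Of 29 genes of the citric acid and glyoxylate cycles and gluconeogenesis 7 were higher and 2 lower (median 0.06), with 11 higher under scaling to the same total and 4 with the length trend removed. ADR1 and CAT8 (0.49), regulators of growth without glucose, and IDH2, of the citric acid cycle (0.30), were higher, and PCK1, the first enzyme of gluconeogenesis, was lower (-0.72). IDH2 lost its call in several fits that leave out a library, and CAT8 with the length trend removed. ADR1 had 895, 845 and 871 normalised counts in cen4- cells at 120 min and 251, 278 and 274 in CEN4* cells at 0 min, against 453, 418 and 452 in CEN4 cells at 120 min and 225, 267 and 264 at 0 min. It rose in both strains and more in cen4- (0.89, SE 0.09, limma adjusted p = 6.96e-12). It is 3972 bases long and lies on chromosome IV. Hexose transporters held 3 higher and 2 lower of 19, with HXT13, which has a near copy (1.02), and HXT10 higher and HXT5 and HXT1 (-0.69) lower.

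By the effect respiratory genes changed little. Of 34 genes of oxidative phosphorylation 4 were higher and 4 lower (11.8% each, median -0.08), against 11.9% and 14.2% over all genes. The strains themselves differed: 27 of the 34 were lower in CEN4* than in CEN4 at 0 min (median -0.19). At 120 min 26 were lower in cen4- than in CEN4 (median -0.20). Over all 5948 genes 420 were lower at 0 min and 1557 at 120 min. RIP1 (0.21) was higher, and the short genes ATP17 (-0.45), COX9 (-0.24) and QCR7 (-0.24), all on chromosome IV, were lower. COX9 and QCR7 lost their calls with the length trend removed, which left 2 lower genes, against 7 in edgeR and 7 without replicate 1 of CEN4 at 120 min. The higher count was 1 without replicate 3 of CEN4 at 0 min and 10 under scaling to the same total. Of 64 mitochondrial ribosomal proteins 2 were higher and 8 lower (median -0.04), such as MRPL10 (-0.38), MRPS35 (-0.35) and MRPL6 (-0.28), with RSM24, on chromosome IV, higher (0.30), and 2 were lower with the length trend removed.

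Ergosterol synthesis held 4 higher and 4 lower of 27 (14.8% each, median -0.03), near the 11.9% higher and 14.2% lower over all genes. UPC2, its transcription factor on chromosome IV, had 564, 622 and 624 normalised counts in cen4- at 120 min, 666, 712 and 694 in CEN4* at 0 min, 413, 407 and 382 in CEN4 at 120 min and 691, 658 and 699 in CEN4 at 0 min. CEN4 at 120 min was the low group (0.57, SE 0.09, limma adjusted p = 2.34e-07). ERG9 (0.27) and the reductase HMG1 (0.25) were higher and ERG7 (-0.18) lower, and under scaling to the same total none was lower. DAN, TIR and anaerobic wall genes held 3 higher of 10, DAN1, TIR1 (0.45) and TIR3 (0.39), with none lower (median 0.18). TIR1 had 1158, 1195 and 1198 normalised counts in cen4- at 120 min, 5912, 5851 and 5593 in CEN4* at 0 min, 1226, 1314 and 1108 in CEN4 at 120 min and 8202, 8063 and 8007 in CEN4 at 0 min. It fell in both strains and less in cen4-. Autophagy genes held 6 higher and 4 lower of 36 (median 0.03), with ATG39 (0.60), ATG2 (0.59) and ATG19 (0.46) higher and ATG5 lower (-0.47), and 14 were higher under scaling to the same total. None of the 8 GAL genes was called, and the most abundant, GAL80, stood at -0.13 (SE 0.08, limma adjusted p = 0.205).

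Effects ran with gene length across the genome, and this stands beside every list of short or long genes. Without ribosomal proteins the median effect was -0.18 in genes of at most 300 bases, -0.10 from there to 500, -0.08 to 1000, 0.01 to 2000, 0.10 to 4000 and 0.17 above 4000. Of the shortest class 1.42% were higher and 27.4% lower, and of the longest 40.8% were higher and 1.35% lower. The longest genes on chromosome IV had a median of 0.42, with 79.3% higher, and those elsewhere 0.16, with 35.1% higher. With the trend over log length removed 1221 genes were called, 516 higher and 705 lower. By promoter class as the deposited table gives it, 38.0% of 743 genes with a TATA box were called, 27.6% of 3428 with a TATA-like element and 18.2% of 1777 with no entry. The median expression of these classes differed, at 1306, 936 and 268 normalised counts.

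The effect at 120 min was set beside those at 60 and 180 min, which use the same 0 min libraries and are given as values only. The median effect of the heat-shock factor targets was 0.09 at 60 min, 0.44 at 120 min and 0.59 at 180 min. Ribosomal proteins of the large subunit stood at -0.10, -0.45 and -0.64 in the same order, and a-cell genes at -0.10, -0.50 and -0.64. Sulfur genes stood at 0.15, 0.25 and 0.59. The CLB2 cluster took another course, with 0.07, 0.20 and 0.01. Purine genes stood at -0.08, -0.31 and -0.34. For chromosome IV the difference in shift between the strains was 0.0108 at 30 min, 0.0415 at 60 min, 0.148 at 120 min and 0.226 at 180 min.

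The step between times was tested directly, as the difference of the 2 effects, in which the 0 min libraries drop out. Between 60 and 120 min 995 genes changed their effect (16.7%), 457 upward (7.68%) and 538 downward (9.05%). Of them 797 were called at 120 min with the same sign. The step and the effect at 120 min hold the same 120 min libraries, so this overlap is partly built in. Among genes with at least 100 normalised counts the largest upward steps were those of BSC1 (0.96), TSL1, a subunit of trehalose synthase (0.88), ADR1 (0.87) and YDR365W-B (0.81), and the largest downward ones those of DAD4 (-1.53), RDT1, RPL41B (-0.99) and ATX1 (-0.93). DAD4 stood at 0.02 at 60 min and at -1.51 at 120 min. ADR1 likewise stood at 0.02 and then 0.89.

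Between 120 and 180 min 741 genes changed their effect (12.5%), 381 upward (6.41%) and 360 downward (6.05%). Of them 330 were called at 120 min with the sign of the step, and 63 with the opposite sign. The 120 min libraries enter this step with the sign opposite to that in the effect at 120 min. Opposite signs are therefore partly built in. SHC1, an activator of chitin synthesis (1.08), YCL048W-A (0.98), SOL4, a 6-phosphogluconolactonase (0.95), and CYC7, the minor cytochrome c (0.93), went up most. GCV2 (-0.89), MFA1 (-0.87), HXT4 (-0.78) and snR19, the U1 snRNA (-0.97), went down most. MFA1 stood at -0.65 at 120 min and -1.52 at 180 min, and GCV2 at -1.05 and -1.94.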

How the data were processed

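RNA-seq was done on total RNA of 30 libraries in 10 groups of 3, per the labels, which name 3 independent experiments. The deposited signal values are read counts per gene divided by a DESeq2 size factor for each library, and STAR 2.6.1 and DESeq2 are named with R64 (sacCer3) in the submitters' processing notes; the read counter, strand setting and annotation release are not given in the sources used here. Because strand use is not given, overlapping and antisense genes are uncertain. Whole reads could be recovered from 100% of the values (tolerance 1e-06). In 4 gene names the table holds a sample name in place of letters, and these were taken from R64 by identifier, which matched 6047 of the 7127 genes.

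limma 3.58.1 in R 4.3.3 was run on log2(value + 1) with trend and robust options and 1 mean for each of the 10 groups, over all genes with a mean of at least 10. P-values were adjusted by Benjamini-Hochberg over all 5948 genes, with calls below 0.05. For list and position results no set test was run. The named genes are the 12 largest called rises and 12 largest falls with a mean of at least 100 whose libraries did not overlap, the 3 largest of each below that mean, the leading called genes of each of 48 lists, the largest steps between times, the genes nearest the centromere and the strain markers. Members and lists were chosen with earlier results of these data known. The tests were checked on simulated data. Alternatives were edgeR 4.0.16 and DESeq2 1.42.0 on recovered reads, other filters, pseudocounts and scalings, a replicate block and each library left out in turn. Array weights and removal of the length trend were added after seeing the data. Near-identical copies were found with BLAST+ 2.17.0. Over 30 libraries 8218002 to 14956813 reads were counted, and precision beyond counting error was taken from the replicates. The sequence of the excised element and 1 gene list are not reported here.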

Additional observations from a re-analysis of the deposited data

Results flagged for a closer look

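In 3 genes the excision effect at 120 min and that at a neighbouring time had opposite signs, both times past the threshold, and the step between the times was called as well by limma on the difference of the effects. All 3 share their 0 min libraries between the times. Each step reuses the libraries of both times, so its call is not separate evidence. PST1, a cell wall protein on chromosome IV, had an effect of 0.17 at 120 min and -0.21 at 60 min, and WSC4, a cell surface stress sensor, 0.31 at 120 min and -0.27 at 180 min. GRE2, a stress-induced reductase, had -0.27 at 120 min and 0.23 at 180 min. At 0 min the log2 difference of CEN4* from CEN4 was 0.47 for GRE2, -0.56 for WSC4 and 0.08 for PST1, the last not called. PST1 and GRE2 lost their 120 min calls without replicate 3 of CEN4 at 0 min, and GRE2 also under scaling to the same total. What lies behind these changes of sign was not tested.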

How the results depend on the processing

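Under the alternatives run, no result changed sign past the threshold. For the excision effect at 120 min 1550 genes were called. With all libraries set to an equal sum 1381 genes were higher and 501 lower, against 707 and 843. edgeR called 1555 genes (598 higher, 957 lower), DESeq2 1396 (608 and 788). With the length trend removed, an alternative chosen after seeing the data, 663 genes changed between 60 and 120 min, against 995. The chromosome IV shift was 0.123 with no filter on low values, against 0.148. Leaving out 1 library at a time gave 1321 to 1582 genes with an effect, 595 to 711 higher and 718 to 873 lower. It gave 2843 to 3062 genes that differed at 120 min, 742 to 848 at 0 min, 4071 to 4129 that changed in cen4- and 4009 to 4120 in CEN4, 782 to 1077 steps from 60 to 120 min and 597 to 798 from 120 to 180 min, and a shift of 0.138 to 0.155. Same-numbered libraries showed little shared deviation (correlations of -0.10 to 0.12 over 15 pairs, 1 of them over 0.1, and 6 of 15 cen4- libraries closest to their own number). At 0 min each CEN4* library was closest to its own number (0.119, 0.0295 and 0.0635), and at 120 min no cen4- library was (-0.0335, 0.000478 and 0.028). Correlations this weak cannot tell whether the numbers pair the samples. With the replicate block 1552 genes were called, and for the shift an exact sign-flip test gave p = 0.25, the smallest it allows. Some named genes lost their call in a fit not given beside them. With the length trend removed these were DBP10, HMG1, MRPL6, PIG1, RPB10, RPC10 and TIF11. Under scaling to the same total they were ERG7, HOS2, RPB10, THI80 and TIF11. Leaving out 1 library did so for ATG39, HOS2, LYS1, PHO5, PIG1, SOE1, STR3 and THI80. GPP2 lost its call when only the groups of the contrast were fitted. The causes of these differences were not tested. Depth limits mainly genes under 100 normalised counts.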
